A study of Mus musculus with 10 samples.

Results

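The genes described here are 10 components of Toll-like receptor signalling: the receptors Tlr1, Tlr2, Tlr3, Tlr4, Tlr6 and Tlr7, the co-receptor genes Cd14 and Ly96, the adaptor gene Myd88 and the kinase gene Irak1. They were chosen by symbol from the array's annotation, and all 10 were found among 12393 genes with a probe set that carries exactly 1 symbol. Between them they had 17 of the 22626 probe sets on the array. Each gene was read from the brightest of its probe sets by the mean of all arrays, and the other 7 probe sets served as a check.

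Toll-like receptors are sentinels of innate immunity that recognise conserved microbial molecules. TLR1 and TLR6 each pair with TLR2 at the cell surface to bind bacterial lipopeptides, TLR4 binds lipopolysaccharide with the help of CD14 and of MD-2, the product of Ly96, and TLR3 and TLR7 sit in endosomes and bind RNA. All of these receptors except TLR3 signal through the adaptor MyD88, which recruits kinases of the IRAK family and leads to activation of NF-kB, while TLR3 uses another adaptor. In the lung these genes are used by alveolar macrophages, recruited leukocytes, epithelium and endothelium.

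Total RNA was taken from the whole lungs of male mice of the common inbred strain C57BL/6, which were 6 to 8 weeks old. Of 10 mice 5 were kept in normoxia and 5 were exposed to intermittent hypoxia, with 1 Affymetrix Mouse Genome 430A array for each lung. The labels name no genetic change and no other agent in either group. The oxygen levels, the duration of the exposure and the time of tissue collection are not given in the sources used here. Setting the groups side by side asks how expression in exposed lungs differed from that in control lungs, within a study of the adult alveolar surface. The lung markers were high on every array, with log2 levels of 14.50 to 14.72 for Sftpc (surfactant protein C) and 12.73 to 13.27 for Ager (alveolar type 1 cells), against array medians of 7.69 to 7.73. The spread of the values over an array was narrower on normoxia arrays 2, 3 and 4 (standard deviation 1.89 to 1.93) than on the other 7 arrays (1.99 to 2.05). Results for the 10 genes that rest on these 3 arrays are therefore given with and without them. Levels are log2 probe set values, differences are log2 values of intermittent hypoxia minus normoxia, and a gene is said to have risen or fallen where its adjusted p in limma, a linear model fitted to the whole array with Benjamini-Hochberg adjustment, was below 0.05.

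Of the 10 genes 2 rose after intermittent hypoxia, Tlr1 and Irak1, none fell and 8 did not pass. Over all genes 12.5% passed the same test, 8.93% higher and 3.6% lower, so 2 of 10 is a count near the background. The split of all calls depends on scaling: of the probe sets that passed, 71.2% were higher, against 59.1% after quantile normalization. The median difference of the 10 genes was 0.08, beside 0.01 over all genes, with 6 differences above and 4 below 0. The groups overlapped in all 10 genes, while they did not overlap in 8.61% of all genes. In whole lung, a lower or higher level can reflect the number of cells of a type or the RNA per cell, and these cannot be told apart.

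Promoter sequences are shown for the receptor pair Tlr1 and Tlr2, which had the largest positive differences of the 10, and for Irak1, the other gene that rose. Each is the 250 bases before a start site listed by RefSeq, read on the minus strand of GRCm38.p6, 5′ to 3′, and capitals mark motifs found by a search of both strands. The motifs searched were the NF-kB consensus, the PU.1 core GAGGAAG, the interferon-type repeat GAAANNGAA and the hypoxia response core ACGTG. The Tlr1 window lies at chr5:64933559-64933808, the Tlr2 window at chr3:83841609-83841858 and the Irak1 window at chrX:74023922-74024171.
Tlr1: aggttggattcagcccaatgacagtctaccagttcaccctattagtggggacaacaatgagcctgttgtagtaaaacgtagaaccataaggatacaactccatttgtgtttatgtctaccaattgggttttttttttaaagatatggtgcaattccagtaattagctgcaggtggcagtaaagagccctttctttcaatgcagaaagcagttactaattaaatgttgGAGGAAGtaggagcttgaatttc
Tlr2: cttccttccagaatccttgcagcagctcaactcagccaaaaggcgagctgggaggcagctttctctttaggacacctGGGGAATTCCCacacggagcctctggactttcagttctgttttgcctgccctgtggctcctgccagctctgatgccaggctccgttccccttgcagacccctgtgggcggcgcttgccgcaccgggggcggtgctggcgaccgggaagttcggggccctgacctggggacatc
Irak1: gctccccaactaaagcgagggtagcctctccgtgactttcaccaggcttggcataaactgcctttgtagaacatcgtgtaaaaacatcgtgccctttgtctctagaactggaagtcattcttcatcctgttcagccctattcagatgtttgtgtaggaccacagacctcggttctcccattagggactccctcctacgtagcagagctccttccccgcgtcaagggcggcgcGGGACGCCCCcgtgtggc

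The Tlr1 window held a PU.1 core that begins 23 bases before the start site, a motif of myeloid and B cell promoters that 10.6% of 32851 windows of this length hold. It held no NF-kB consensus. The Tlr2 window held a palindromic NF-kB consensus from 172 bases before the start, with a second match that overlaps it by all but 1 base, and 7.25% of all windows hold this motif. In the Irak1 window an NF-kB match on both strands begins 18 bases before the start. RefSeq lists a second start for Tlr1, whose window has ACGTG on both strands, from 194 bases before that start on the plus orientation and sharing all but 1 base with its reverse match. ACGTG is found in 16.6% of windows. Of the other genes, Tlr3 had an NF-kB consensus (211 bases before the start), Tlr6 had a pair of interferon-type repeats that overlap and Myd88 had a single one. That repeat occurs in 7.13% of windows. Windows were found for 6 of the 10 genes, and Tlr4, Tlr7, Cd14 and Ly96 were not matched. A match describes letters in the window and does not show that a factor binds there.

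**Figure D1:**
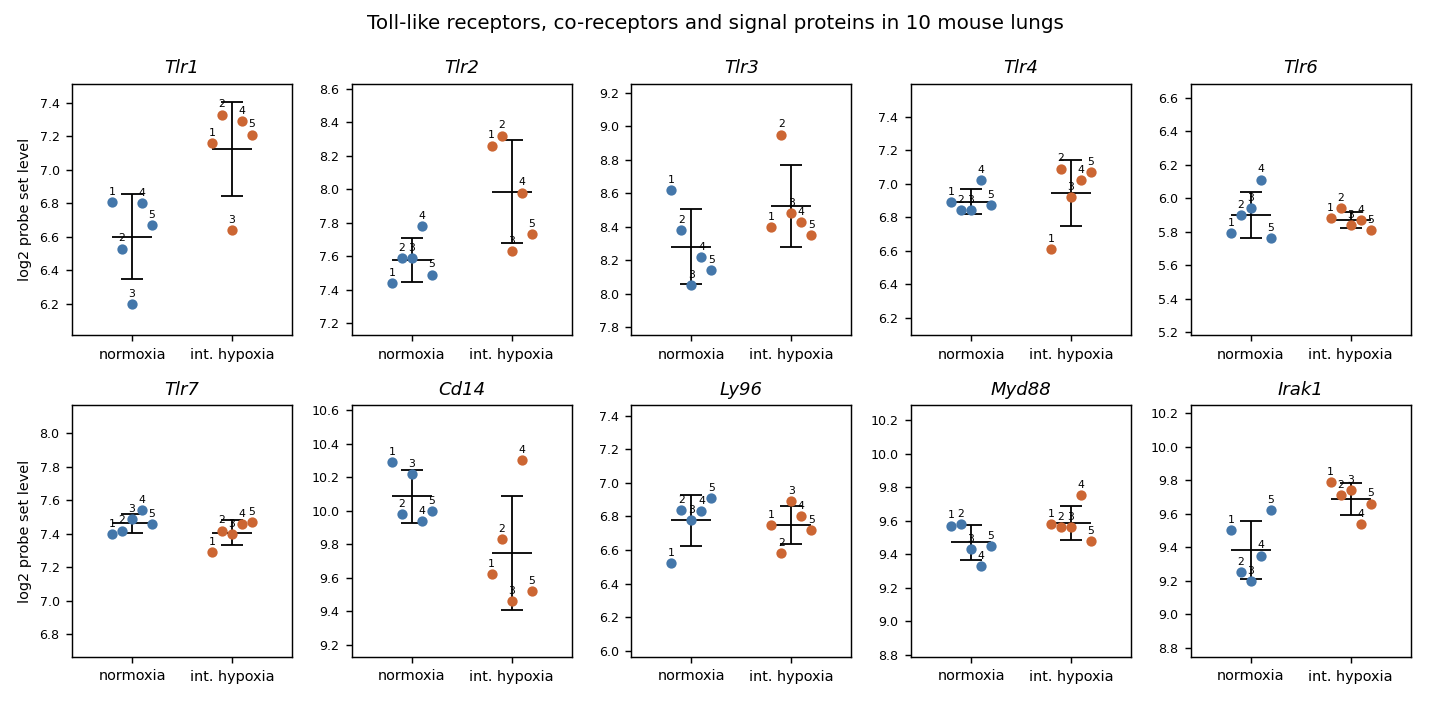
Log2 probe set level (y axis, a range of equal width in each panel) of the 10 genes in 5 normoxia and 5 intermittent hypoxia lungs, with array numbers beside the points and bars for mean ± SD. In Tlr1 and Irak1, 4 of 5 hypoxia arrays lie above every normoxia array, and in Cd14, 4 of 5 lie below.

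Among the surface receptors of the TLR2 group, Tlr1 rose and Tlr2 and Tlr6 did not pass. Tlr1, the partner of TLR2 for triacylated lipopeptides, had log2 levels of 6.81, 6.53, 6.20, 6.80 and 6.67 on normoxia arrays 1 to 5, and of 7.16, 7.33, 6.64, 7.29 and 7.21 on hypoxia arrays 1 to 5. Hypoxia array 3 fell within the normoxia range and the other 4 hypoxia arrays stood above it. Tlr1 rose from 6.60 ± 0.25 to 7.13 ± 0.28 (SD, n = 5), a log2 difference of 0.52 (SE 0.14, limma adjusted p = 0.0327) or 1.44-fold. The call ended in 7 of 10 fits with 1 array removed (adjusted p up to 0.0781). These left out normoxia array 2, 3 or 4, or a hypoxia array other than array 3. The p-values are adjusted over the whole array. There 1003 to 1714 probe sets passed in these fits, or 2928 without hypoxia array 5, against 2699 with all arrays. The difference of Tlr1 was 0.42 to 0.57 in these fits, and without hypoxia array 3 it was 0.65 (adjusted p = 0.0143). Without normoxia arrays 2 to 4 together it was 0.39 (adjusted p = 0.457), with 2 normoxia arrays left.

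Tlr2, the shared partner of the lipopeptide receptors, had log2 levels of 7.44, 7.59, 7.59, 7.78 and 7.49 in normoxia and of 8.26, 8.32, 7.63, 7.98 and 7.73 in intermittent hypoxia. Hypoxia arrays 1, 2 and 4 were above every normoxia array, and arrays 3 and 5 lay within the normoxia range. The difference was 0.41 (SE 0.13, 95% interval 0.14 to 0.68) and did not pass (limma adjusted p = 0.0523). In 14 of 19 alternative fits Tlr2 did not pass either, among them quantile normalization (adjusted p = 0.0629), arrayWeights (0.0667) and a replicate block (0.0626). It passed in 5, which included those without hypoxia array 3 (adjusted p = 0.0340) or 5 (0.0337). It also passed with the dimmer part of all probe sets, below the median, filtered out (0.0333). The same held with eBayes trend and robust options (0.0446) and with the mean of the probe sets of each gene (0.0488). Without normoxia arrays 2 to 4 the difference of Tlr2 was 0.52 (adjusted p = 0.314).

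Tlr6, the partner of TLR2 for diacylated lipopeptides, is a close relative of Tlr1 and its next protein-coding neighbour on chromosome 5. Its log2 levels were 5.79, 5.90, 5.94, 6.11 and 5.76 in normoxia and 5.88, 5.94, 5.84, 5.87 and 5.81 in intermittent hypoxia. All 5 hypoxia values lay inside the normoxia range, with a difference of -0.03 (SE 0.07, 95% interval -0.19 to 0.12, limma adjusted p = 0.786). The level of Tlr1 relative to Tlr6 on the same array was 0.70 ± 0.29 in normoxia (SD, n = 5) and 1.26 ± 0.27 after exposure (SD, n = 5), on a scale that compares arrays and not the amounts of the transcripts. The differences of Tlr1 and Tlr6 were 0.56 apart. This is a description with no test, since the pair was picked after the values were seen. It was 0.45 to 0.67 when single arrays were left out and 0.29 without normoxia arrays 2 to 4.

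No gene of the lipopolysaccharide receptor complex passed as higher. Tlr4 and Ly96, like Tlr1, Tlr6 and Tlr7, had mean levels below the median of all probe sets. For Tlr4, the signalling receptor, log2 levels spanned 6.84 to 7.02 in normoxia and 6.61 to 7.09 after exposure, where array 1 was the lowest of all 10 arrays. The difference was 0.05 (SE 0.09, 95% interval -0.15 to 0.24, limma adjusted p = 0.755), and the other Tlr4 probe set differed by 0.17 (adjusted p = 0.202). Ly96, whose product MD-2 holds the lipid part of lipopolysaccharide, spanned 6.52 to 6.91 in normoxia and 6.58 to 6.89 after exposure. The hypoxia range thus lay inside the normoxia range, with a difference of -0.03 (SE 0.08, 95% interval -0.21 to 0.15, adjusted p = 0.844).

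Cd14, which hands lipopolysaccharide to TLR4 and MD-2, had log2 levels of 10.29, 9.98, 10.22, 9.94 and 10.003 in normoxia and of 9.62, 9.83, 9.46, 10.30 and 9.52 in intermittent hypoxia. Hypoxia array 4 had the highest value of all 10 arrays, and the other 4 hypoxia arrays were below every normoxia array. With all arrays the difference was -0.34 (SE 0.14, 95% interval -0.65 to -0.04) and did not pass (limma adjusted p = 0.120). Without hypoxia array 4 it was -0.48 and passed as lower (adjusted p = 0.0211). This was the only 1 of 19 alternative fits in which Cd14 passed. The difference was -0.48 to -0.27 over these fits, and -0.27 (adjusted p = 0.251) without hypoxia array 3. Without normoxia arrays 2 to 4 together it was -0.40 (adjusted p = 0.535). After quantile normalization the difference of Cd14 was -0.48 with all arrays (adjusted p = 0.0553).

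The RNA receptors of endosomes did not pass either. Tlr3, a receptor for double-stranded RNA, had levels of 8.05 to 8.62 in normoxia and 8.35 to 8.95 in intermittent hypoxia, with hypoxia array 2 apart from the others. The difference was 0.24 (SE 0.13, 95% interval -0.04 to 0.51, limma adjusted p = 0.217). The other Tlr3 probe set had log2 levels of 5.82 to 6.73 in normoxia and 6.29 to 7.06 in intermittent hypoxia and differed by 0.48 (SE 0.18, adjusted p = 0.0930). Its highest hypoxia value was on array 3, and that of the first probe set was on array 2. Tlr7, which binds single-stranded RNA, had levels of 7.40 to 7.54 and 7.29 to 7.47. Its difference of -0.06 (SE 0.06, 95% interval -0.18 to 0.07, adjusted p = 0.540) was matched in sign by its other probe sets, at -0.04 each.

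Of the signal proteins, the kinase gene rose on a single probe set and the adaptor gene did not pass. Myd88, the common adaptor, had log2 levels of 9.33 to 9.58 in normoxia and 9.48 to 9.75 in intermittent hypoxia. Hypoxia array 4 was the highest, and the difference of Myd88 was 0.11 (SE 0.07, 95% interval -0.04 to 0.26, limma adjusted p = 0.302). Irak1, the kinase that MyD88 recruits, had levels of 9.50, 9.25, 9.20, 9.35 and 9.62 in normoxia and of 9.79, 9.71, 9.74, 9.54 and 9.66 in intermittent hypoxia. Of the hypoxia arrays only array 4 lay within the normoxia range, and normoxia arrays 2 to 4 were the lowest of all.

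On this probe set Irak1 rose by 0.31 (SE 0.09, limma adjusted p = 0.0385), or 1.24-fold. The other 3 probe sets of Irak1 differed by 0.03, -0.03 and -0.01, with adjusted p values from 0.731 to 0.929 and 95% intervals that reached no higher than 0.22. The mean of all 4 differed by 0.07 and did not pass (adjusted p = 0.369). Quantile normalization gave a difference of 0.20 (adjusted p = 0.0675). Irak1 likewise no longer passed in 7 of 10 fits with 1 array removed (adjusted p up to 0.0968), which were those of numbers 2 to 4 of the normoxia group and of every hypoxia array but array 4, and without normoxia arrays 2 to 4 together the difference was 0.13 (adjusted p = 0.695).

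**Figure D2:**
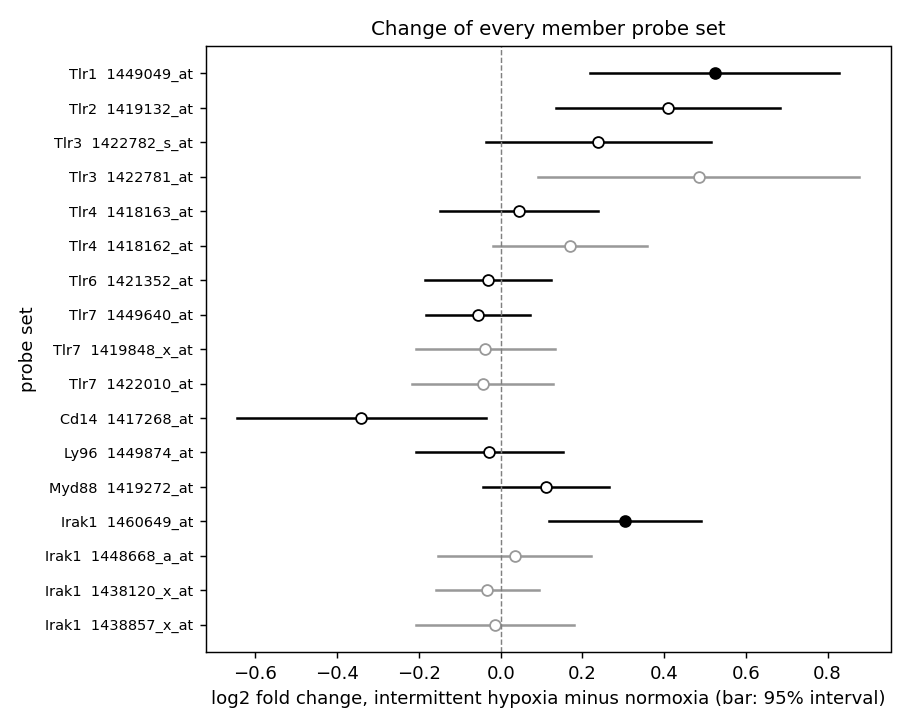
Log2 fold change (x axis) of all 17 probe sets of the 10 genes, with 95% intervals from the linear model. Black marks the probe set used for a gene, grey marks its other probe sets, and filled points passed the test. Only the probe set of Tlr1 and 1 of 4 of Irak1 passed.

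**Figure D3:**
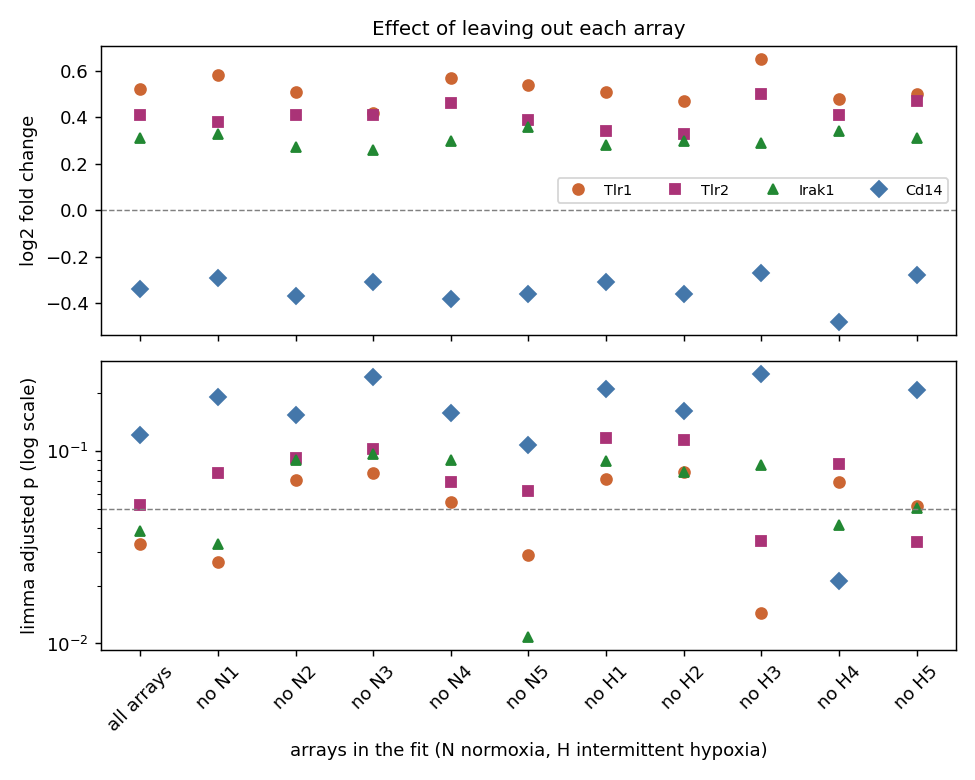
Log2 fold change (top) and limma adjusted p on a log scale (bottom) of Tlr1, Tlr2, Irak1 and Cd14 with all arrays and without each array, and a dashed line at an adjusted p of 0.05. The differences kept their sign in all 10 fits, while Tlr1 and Irak1 each crossed the threshold in 7 of them.

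Within the groups the 10 genes did not vary as a block. After the group means were subtracted, Pearson's r over the 10 arrays was highest for Tlr4 with Tlr7 (0.82) and for Cd14 with Myd88 (0.67). It was 0.46 for Tlr1 with Tlr2 and lowest for Tlr3 with Ly96 (-0.72). These values describe the arrays, which share scaling, and carry no test. By the same measure over all genes, the closest profile to Tlr1 was that of Lrmp (r = 0.90) and to Tlr2 that of Tmem131l (0.94). The closest to Irak1 was that of Sdha, a subunit of mitochondrial succinate dehydrogenase (0.97). Each is the highest r among all genes on 10 arrays. The closest r was 0.90 to 0.97 for all 10 genes, also for those that did not pass.

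The rest of the pathway was read from lists of its parts, with 85 measured genes beside the 10. Of these 11 rose, 3 fell and 71 did not pass. That is 16.5% past the test, beside 12.5% of all genes, and the median difference was 0.09, beside 0.01 over all genes. Among other Toll-like receptors, Tlr8, an endosomal relative of Tlr7, fell by 0.45 (SE 0.11, limma adjusted p = 0.0244), from 8.13 ± 0.26 to 7.68 ± 0.12 (SD, n = 5). Its groups overlapped, as 4 of 5 hypoxia arrays lay below every normoxia array. Tlr5, the flagellin receptor, differed by -0.14 (adjusted p = 0.167) and Tlr9, the receptor of CpG DNA, by 0.00 (adjusted p = 0.989). The call of Tlr8 ended on removal of number 2, 3 or 4 of the normoxia group or number 1, 2 or 3 of the exposed group (adjusted p up to 0.0670), and without normoxia arrays 2 to 4 together its difference was -0.18 (adjusted p = 0.556).

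Proteins that deliver ligands or accompany the receptors had 2 rises and 1 fall among 10 genes, with a median difference of 0.16. Ly86, which encodes MD-1, a relative of MD-2 that pairs with the receptor-like protein CD180, rose from 9.32 ± 0.11 to 9.76 ± 0.17 (SD, n = 5), and every hypoxia array stood above every normoxia array. The log2 difference of Ly86 was 0.44 (SE 0.08, limma adjusted p = 0.00995). Its partner Cd180 differed by 0.14 (adjusted p = 0.256). Lgmn, an asparagine endopeptidase that can process endosomal receptors, rose by 0.68 (SE 0.13, adjusted p = 0.0110). Both Ly86 and Lgmn kept their calls whichever array was removed, and without normoxia arrays 2 to 4 they differed by 0.35 (adjusted p = 0.306) and 0.42 (adjusted p = 0.355). Tril, an accessory protein of TLR4, fell by 0.25 (SE 0.07, adjusted p = 0.0347), but its other probe set differed by -0.06 and its call ended on removal of number 2, 3 or 4 of the normoxia group or of any exposed array but number 5 (adjusted p up to 0.0912). Without normoxia arrays 2 to 4 together Tril differed by -0.17 (adjusted p = 0.558).

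Downstream of the adaptor the lists are small, and their counts stand beside the 12.5% of all genes that passed. Of 15 kinases and ubiquitin enzymes 1 rose, Ube2v1, a cofactor of the ubiquitin conjugation that activates the TAK1 kinase, at 0.58 (SE 0.13, limma adjusted p = 0.0155). Traf6, the ubiquitin ligase next in line after the IRAK kinases, differed by 0.05 (adjusted p = 0.622). Of 12 inhibitors 2 rose, Dok3 by 0.27 (SE 0.08, adjusted p = 0.0395) and Trafd1 by 0.26 (SE 0.08, adjusted p = 0.0424). Neither of 2 further adaptors passed, with Tirap, the bridge between TLR2 or TLR4 and MyD88, at 0.25 (adjusted p = 0.0714), and none of 7 genes of the related IL-1 receptor family did.

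Of 11 transcription factors 3 rose. Rela, the p65 subunit of NF-kB, rose by 0.31 (SE 0.07, limma adjusted p = 0.0222), Irf8, a regulator of myeloid and B cells, by 0.57 (SE 0.15, adjusted p = 0.0276) and Irf5, which acts below MyD88, by 0.43 (SE 0.11, adjusted p = 0.0317). The other Irf8 probe set differed by 0.52 (adjusted p = 0.0577) and the other Irf5 probe set by -0.01. After quantile normalization Rela differed by 0.16 (adjusted p = 0.0700) and Irf8 by 0.45 (adjusted p = 0.0634). Trafd1 differed by 0.16 (adjusted p = 0.0795). Removal of number 2, 3 or 4 of the normoxia group, or of exposed array 1, ended the calls of Rela, Irf5, Irf8, Dok3 and Trafd1 alike (adjusted p up to 0.107 over the 5 genes). Exposed array 2 also did so for Rela, Irf5, Dok3 and Trafd1, array 3 for Rela and Trafd1, and array 4 for Irf8, Irf5, Dok3 and Trafd1. Ube2v1 kept its call whichever array was removed.

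Transcripts that the pathway induces showed no common direction, with 3 rises and 1 fall among 25 and a median difference of -0.02. Icam1, an adhesion molecule for leukocytes, rose by 0.53 (SE 0.10, limma adjusted p = 0.00915). The chemokine genes Ccl5 and Ccl3 rose by 0.60 (SE 0.14, adjusted p = 0.0188) and 0.37 (SE 0.10, adjusted p = 0.0303). Acod1, the itaconate-producing enzyme of activated macrophages, fell by 0.33 (SE 0.09, adjusted p = 0.0324). Ccl3, Acod1 and Il6 had mean levels below the median of all probe sets. The cytokine genes Tnf and Il1b differed by -0.10 (adjusted p = 0.375) and -0.10 (adjusted p = 0.679). Il6 differed by 0.49 (SE 0.21, adjusted p = 0.131), and its hypoxia values were spread from 4.65 to 5.94. Icam1 and Ccl5 kept their calls without any single array, whereas removal of number 2, 3 or 4 of the normoxia group ended those of Ccl3 (adjusted p up to 0.0741) and Acod1 (up to 0.0782). The same held for exposed arrays 1 and 4 with Ccl3 and for exposed arrays 2 to 4 with Acod1. Without normoxia arrays 2 to 4 together none of the 85 genes passed. In that fit 16 of all 22626 probe sets passed, so none of 85 is near the background.

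**Figure D4:**
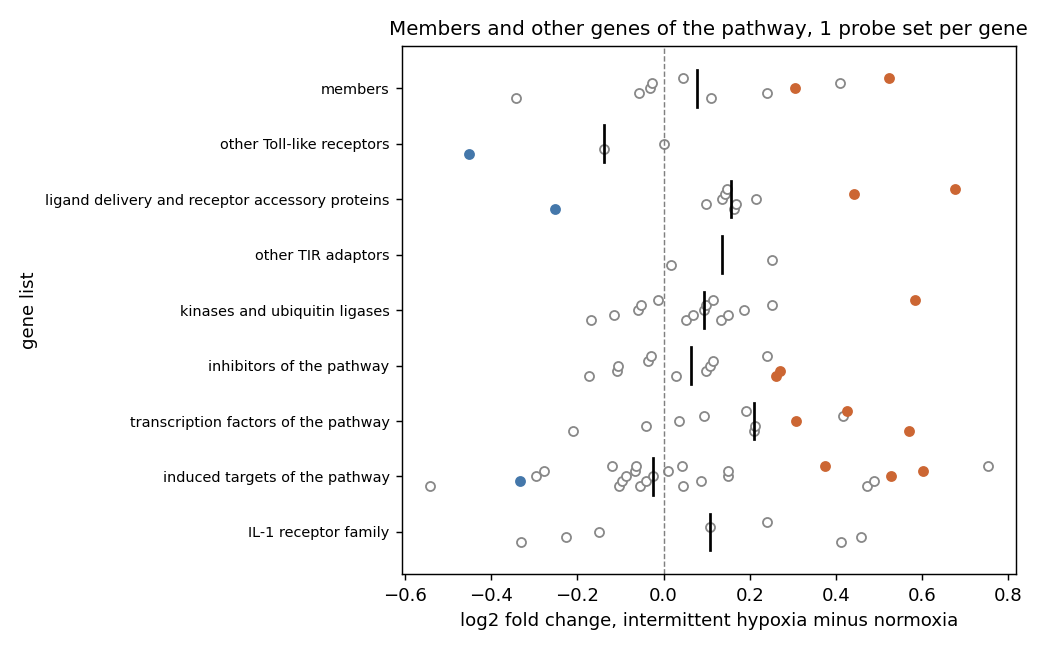
Log2 fold change (x axis) of each gene, 1 probe set per gene, for the 10 receptors and signal proteins (top row, named members) and 8 lists of other pathway genes. Orange points rose, blue points fell, open points did not pass, and the black bar is the median of a list, which lies between -0.14 and 0.21.

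Some markers of the leukocytes that carry these receptors differed between the groups too, and their counts stand beside the 12.5% of all genes that passed. Of 15 macrophage and monocyte markers 5 rose and none fell, Cd68, Ccr2, Mpeg1, Mrc1 and Cx3cr1, and the mean log2 level of the list spanned 8.913 to 9.004 in normoxia and 9.05 to 9.41 after exposure. The largest of these rises was that of Cd68, at 0.74 (SE 0.13, limma adjusted p = 0.00721), while Lyz2 differed by 0.08 (adjusted p = 0.497) and Adgre1 by -0.21 (adjusted p = 0.0936). Cd68 and Cx3cr1 had mean levels below the median of all probe sets. Markers were read from 1 probe set per gene, and any other probe sets of a marker were not checked. Of 12 neutrophil markers 2 fell, Ltf and Mmp8, and none rose, with list levels of 8.14 to 9.11 in normoxia and 8.21 to 8.67 in intermittent hypoxia. Of 6 B cell markers 4 rose, with list levels of 7.91 to 8.53 and 8.53 to 9.25. Of 10 T and NK cell markers 4 rose, Cd3d, Cd3g, Klrd1 and Cd8b1, and 7 differences were above 0. Of the others Cd4 differed by -0.22 (limma adjusted p = 0.159), Cd3e by -0.09 (0.524) and Cd8a by 0.06 (0.6245). Of 8 dendritic cell markers 1 rose, Itgax. The median difference of the dendritic cell list was -0.02. Taken in either direction, the counts of the neutrophil and dendritic cell lists are near the 12.5%. Both neutrophil calls were falls, and 3.6% of all genes passed as lower. Of the 12 neutrophil differences 1 was above 0, beside 53.2% of those of all genes. Without normoxia arrays 2 to 4 no marker of these lists passed, in a fit where 16 of all 22626 probe sets passed. The median difference there was 0.14 for the macrophage list, as with all arrays. It was -0.10 for the neutrophil list and 0.58 for the B cell list, against -0.22 and 0.78 with all arrays. With 1 array removed, the macrophage list had 2 to 6 rises, the neutrophil list 1 to 5 falls, the T and NK cell list 1 to 5 rises and the B cell list 4 to 5. Cd68, Ltf, Itgax and Cd3d kept their calls whichever array was removed. Mpeg1 did not (ended by normoxia array 2 and exposed array 1), nor did Mrc1 (normoxia array 3 and exposed arrays 2 to 4), Ccr2 (normoxia arrays 2 to 4 and exposed array 1), Cx3cr1 (normoxia arrays 2 and 3 and exposed array 1) and Mmp8 (8 of 10 arrays, all but normoxia array 5 and exposed array 4). The highest adjusted p was 0.0654 over the 4 macrophage genes and 0.101 for Mmp8. The calls of Klrd1, Cd3g and Cd8b1 ended in 5, 6 and 8 of 10 fits with 1 array removed (adjusted p up to 0.0991). After quantile normalization 4 macrophage, 4 B cell, 3 T and NK cell and 1 dendritic cell markers rose, and 1 neutrophil marker fell. Mpeg1 then differed by 0.26 (limma adjusted p = 0.182) and Mmp8 by -0.49 (adjusted p = 0.0559). The part of these cells in the differences of Tlr1, Tlr2, Tlr8, Cd14, Ly86 and Irf8 was not tested.

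None of 7 endothelial markers passed. Of 9 epithelial markers 1 rose, Aqp5, by 0.53 (limma adjusted p = 0.00915), and without normoxia arrays 2 to 4 it differed by 0.32 (adjusted p = 0.242). Of 6 adipose markers 1 fell, Retn, by 0.35 (adjusted p = 0.0464), with list levels of 7.07 to 8.08 in normoxia and 6.57 to 7.23 after exposure. Its call ended in 8 of 10 fits with 1 array removed, all but those of normoxia array 1 and exposed array 5 (adjusted p up to 0.116), and without normoxia arrays 2 to 4 it differed by -0.24 (adjusted p = 0.603). Muscle list levels were 9.39 to 11.12 in normoxia and 9.16 to 9.62 after exposure, and the 11.12 was on normoxia array 2. On that array Acta1 was 13.12 and Ckm 11.50, against 5.68 to 6.99 and 7.99 to 8.11 on the other normoxia arrays. Of 8 muscle markers 1 fell, Casq1. Its log2 levels were 9.85, 9.78 and 9.43 on normoxia arrays 2 to 4, against 8.02 and 8.08 on the other normoxia arrays. After exposure they were 7.38 to 8.18. The difference of Casq1 was -1.25 (adjusted p = 0.0366) and -0.26 without normoxia arrays 2 to 4 (adjusted p = 0.724), and the call ended on removal of any of these 3 arrays or of exposed arrays 1 to 4 (adjusted p up to 0.0949). Irak1 had its lowest levels of all 10 arrays on the same normoxia arrays 2 to 4 (9.25, 9.20 and 9.35). Of the normoxia group, Tlr1 was lowest on array 3, and on array 4 Tlr2 was the highest and Cd14 the lowest. The part of adipose and muscle RNA in the differences of the 10 genes was not tested.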

How the data were processed

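Whole-lung RNA of 10 mice was hybridised to Affymetrix 430A arrays, 5 per group, and groups and array numbers were taken from the labels. The authors deposited 1 log2 level per probe set and array, for which the submitters' processing notes name RMA and affy, with versions and settings not given in the sources used here. Array standard deviations differ more than quantile normalization over all arrays would leave, so the scaling is uncertain. No labels or headers gave a batch, and precision is limited by the number of arrays.

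All 22626 probe sets entered 1 unfiltered fit by group (limma 3.58.1, lmFit then eBayes, under R 4.3.3). Its two-sided p-values were adjusted over the whole array by the Benjamini-Hochberg method. The series' design text names SAM, which was run as an alternative with 100 permutations and symmetric cutoffs. Gene symbols came from the platform's annotation table, in which 20380 had 1 symbol, 691 several and 1555 none. Mean list levels are means of log2 values over the measured members of a list. The text names all 10 genes, their other probe sets, the pathway genes past the test and up to 3 further ones per list. Tnf, Il1b, Traf6, Cd180, Lyz2, Adgre1, Cd4, Cd3e and Cd8a are named too, chosen after their values were seen. Members and lists were chosen with earlier results of these data known. The tools were tested on simulated data. The p-values measure the spread between the arrays, which the series' design text describes as separate animals.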

Additional observations from a re-analysis of the deposited data

Results flagged for a closer look

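Among 62 groups of 5 arrays examined for a value far from the other 4, covering the 17 probe sets of the receptors and signal proteins and the pathway genes past the test, 3 held one, and chance alone gives about 5%. Tlr1 was 6.64 on hypoxia array 3, against 7.16 to 7.33 on the other hypoxia arrays. Tlr3 was 8.95 on hypoxia array 2 at its brighter probe set, against 8.35 to 8.48. At 1 of its dimmer probe sets, Irak1 was 8.52 on hypoxia array 5, against 8.13 to 8.24. Without hypoxia array 3 the difference of Tlr1 was 0.65, and without hypoxia array 2 that of Tlr3 was 0.13.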

How the results depend on the processing

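Of the 10 genes 2 passed in the comparison as reported and 1 passed after quantile normalization (Tlr1) or with a replicate block (Tlr1). The count was 0 to 2 when single arrays were left out and 0 without normoxia arrays 2 to 4 together. With median centring, arrayWeights and SAM it was 2 (Tlr1 and Irak1), and with eBayes trend and robust options or an adjusted p below 0.10 it was 3, with Tlr2. With probe sets below the median level filtered out, which kept 5 of the 10 genes and not Tlr1, Tlr2 and Irak1 passed. Over the whole array 2699 probe sets passed, against 4132 with arrayWeights, 1755 with the replicate block, 4954 at 0.10, 16 without normoxia arrays 2 to 4 and 1003 to 4800 without single arrays. Signs turned for Tlr6 (0.02 after quantile normalization, 0.09 without normoxia arrays 2 to 4, and -0.07 to 0.02 without single arrays) and for Ly96 (0.02, 0.04 and -0.09 to 0.01). Myd88 was 0.00 after quantile normalization (adjusted p = 0.982), against 0.11 as reported, and shows no direction there. The other 7 genes kept their direction in every alternative run. Whether the same array number in both groups marks a pair is not settled by the values. Deviations from the group means correlated at -0.24 to 0.22 over 5 numbers, and 4 of 10 arrays correlated best with their own number. The causes of these shifts were not tested. The whole-array count was not made for the mean of the probe sets of each gene, and the comparison of Tlr1 with Tlr6 and its alternatives were chosen after the data were seen.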
